A study of Mus musculus with 12 samples.

Results

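The 67 cadherin and protocadherin genes of a mouse whole-genome array were followed through reprogramming of fibroblasts into induced pluripotent stem (iPS) cells. They were all genes whose deposited or current symbol was Cdh followed by a number, or began with Pcdh. They were read by 113 of the array's 41174 gene probes and comprised 5 type I classical cadherins, 13 type II classical cadherins, 6 other cadherins, 12 non-clustered protocadherins and 31 clustered protocadherins (3 of the alpha, 22 of the beta and 6 of the gamma cluster). One of the other cadherins, Cdhr1, was deposited under an older protocadherin symbol. At least 1 array measured 63 of the 67 genes well above background. Cdh12, Cdh17, Pcdh11x and Pcdhb11 were not well above background on any array and entered no test.

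Cadherins are calcium-dependent adhesion proteins that bind like molecules on neighbouring cells through repeated extracellular domains, and the tails of the classical members hold beta-catenin and p120 catenin at the junction. E-cadherin (Cdh1) joins epithelial and pluripotent cells, N-cadherin (Cdh2) is typical of mesenchymal and neural cells, and the exchange of one for the other is a known step when fibroblasts are reprogrammed. The clustered protocadherins lie in tandem arrays in which every variable exon has its own promoter. Alpha and gamma transcripts join 1 variable exon to constant exons at the 3′ end of their cluster, beta genes are single exons, and neurons are known for choosing few variable exons per cell.

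The 12 samples were 9 iPS lines and 3 cell populations, each hybridised once. Bmi1-Oct4 lines 1 and 2 came from embryonic fibroblasts given Bmi1, a Polycomb protein, and Oct4, a pluripotency factor. The Shh-Oct4 line, oxysterol-Oct4 lines 1 and 2 and purmorphamine-Oct4 lines 1 and 2 came from embryonic fibroblasts that had been turned into cells resembling neural stem cells with a hedgehog pathway agonist (the ligand Shh, oxysterols or purmorphamine) and were then transduced with Oct4. Tail-tip lines 1 and 2 came from adult tail-tip fibroblasts given oxysterol and Oct4. The populations were embryonic stem (ES) cells of 129/Ola mice, spheres of Bmi1-transduced embryonic fibroblasts (Bmi1 spheres, labelled as resembling neural stem cells) and the starting mouse embryonic fibroblasts (MEF). Of the spheres, 1 description field reads iPS, against their title and source, which were followed. The labels give no strain for the fibroblasts, no passage number, and no statement that lines of a group were separate cultures, so the p-values below measure the spread between these samples, which may be technical.

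Levels are given as log2 of the scanner's processed signal minus the array's 75th percentile, called relative level below. Zero is the 75th percentile of that array, and levels of different probes are not comparable. A probe is called above background where the scanner marked it as well above background. The 75th percentile was 1322 to 2148 intensity units, and between 58.4% (Shh-Oct4) and 80.0% (spheres) of gene spots were above background. Members above background varied with it, from 30 of 67 on the Shh-Oct4 array to 56 on that of Bmi1-Oct4 line 1. Of 7 pluripotency markers, the median relative level was 3.50 to 4.73 in the iPS lines and 3.72 in ES cells, against −4.63 in spheres and −3.90 in MEF. Of 10 fibroblast markers, 4 to 8 were above background in each iPS line against 10 in MEF, with a summed level (in multiples of the 75th percentile) of 3.49 to 40.2 in the lines and 127 in MEF. Of 7 neural stem markers, 7 were above background in spheres and 5 in MEF, with a median of −2.87 in spheres and −3.02 in MEF. The only one lower in spheres was Fabp7 (−5.29 against −0.59). Pax6 stood at −2.87 in spheres and −7.94 in MEF, where it was not above background. Sox2, listed among the pluripotency markers, was not above background in the spheres.

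Some sequences of member genes are shown here, and no test rests on the promoter windows among them. The first is the 60-base probe of Cdh11 that read the gene at its 5′ side (mm7 chr8:101261817-101261876, minus strand). It is shown because it gave a different pattern from probes of Cdh11 nearer the 3′ end. The capitals mark 15 bases that spell the calcium-binding linker motif found between cadherin repeats, a run present in 1 of the 41174 probes.
Cdh11 probe: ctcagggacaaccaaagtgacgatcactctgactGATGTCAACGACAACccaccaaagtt
The other sequences are the 250 bases before the start of Cdhr1 (chr14:37098348-37098597, minus strand) and of Pcdh8 (chr14:79771313-79771562, minus strand), from RefSeq on GRCm38.p6. They are shown because these genes were not above background in MEF and were above background in 9 and 8 of the 9 iPS lines. The capitals mark an E-box that Snail, Zeb and E2A factors are known to bind in Cdhr1, and the octamer that Oct4 is known to bind in Pcdh8.
Cdhr1 promoter: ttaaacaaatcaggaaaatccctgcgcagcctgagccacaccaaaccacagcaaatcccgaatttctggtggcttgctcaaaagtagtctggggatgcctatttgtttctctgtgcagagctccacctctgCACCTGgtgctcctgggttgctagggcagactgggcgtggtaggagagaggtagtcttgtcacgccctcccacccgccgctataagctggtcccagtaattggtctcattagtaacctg
Pcdh8 promoter: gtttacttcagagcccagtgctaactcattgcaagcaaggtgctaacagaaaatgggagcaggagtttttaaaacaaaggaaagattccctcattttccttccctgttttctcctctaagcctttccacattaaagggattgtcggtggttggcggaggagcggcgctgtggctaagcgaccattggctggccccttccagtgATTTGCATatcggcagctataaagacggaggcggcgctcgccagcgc
The E-box (CACCTG or CAGGTG, either strand) is held by 17.2% of 32851 promoter windows of this length and by those of 3 of the 23 member genes with an entry, Cdh7, Cdhr1 and Pcdh15. The octamer (ATTTGCAT or ATGCAAAT) is held by 1.60% of the windows and by that of 1 of the 23 genes, Pcdh8. These matches describe the letters of the windows and no binding was measured.

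The first question was how far the iPS lines differ from embryonic fibroblasts, the source of 7 of the 9 lines. No array of tail-tip fibroblasts was analysed here. Against MEF, 11 of the 63 members (17.5%) passed the test, 6 higher and 5 lower in the iPS lines, where 10.8% of all 25403 genes tested passed (7.83% higher and 2.93% lower). The test was limma across all genes with Benjamini-Hochberg adjustment and a threshold of 0.05. MEF, ES cells and spheres have 1 array each, whose spread is taken to be that of the iPS lines, and the comparisons share those lines. With so few arrays, a gene that did not pass is not shown to be unchanged. The higher members were Cdh1, Cdh3, Cdh7, Cdhr1, Pcdhga12 and Pcdhgb4, and the lower ones were Cdh2, Cdh6, Pcdhb6, Pcdhb7 and Pcdhga7. All 9 lines lay on the same side of MEF for each of the 11. The test that picked these genes favours this, so it adds no support. Without the tail-tip lines 8 of the 11 passed, and Cdh2 (adjusted p = 0.0519), Pcdhb6 (adjusted p = 0.0575) and Pcdhgb4 (adjusted p = 0.0861) did not. Tested probe by probe, 6 member probes were higher and 5 lower out of 96, where 9.21% of all probes passed (6.61% higher and 2.6% lower); against spheres 7.24% of all probes did (4.83% higher and 2.41% lower). At an unadjusted p under 0.05 the counts were 23 members (36.5%) and 27.5% of all genes. The median difference was 0.22 over members and 0.38 over all genes. MEF, ES cells and both Bmi1-Oct4 lines shared a slide. With the slide as a fixed block Cdh1, Cdhr1, Pcdhb7 and Pcdhga12 still passed, and within that slide alone no member and no other gene passed. In bulk RNA, fewer cells of a type and less RNA per cell cannot be told apart.

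Against ES cells no member passed, where 0.0236% of genes (6) did. At an unadjusted p under 0.05, 3 members were counted (4.76%, against 4.52% of genes). Against the spheres 8 members (12.7%) passed, 6 higher and 2 lower, where 8.68% of genes passed (5.79% higher and 2.89% lower). Those higher in the iPS lines were Cdh1, Cdh3, Cdhr1, Pcdha6, Pcdhga12 and Pcdhgb4, and those lower were Cdh9 and Pcdhb6. On the slide of the spheres, which also held purmorphamine-Oct4 line 1 and both tail-tip lines, Cdh1, Pcdhga12 and Pcdhgb4 passed when fitted alone. With the slide as a fixed block over all arrays, Cdh1, Cdhr1, Pcdhb6, Pcdhga12 and Pcdhgb4 passed.

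**Figure D1:**
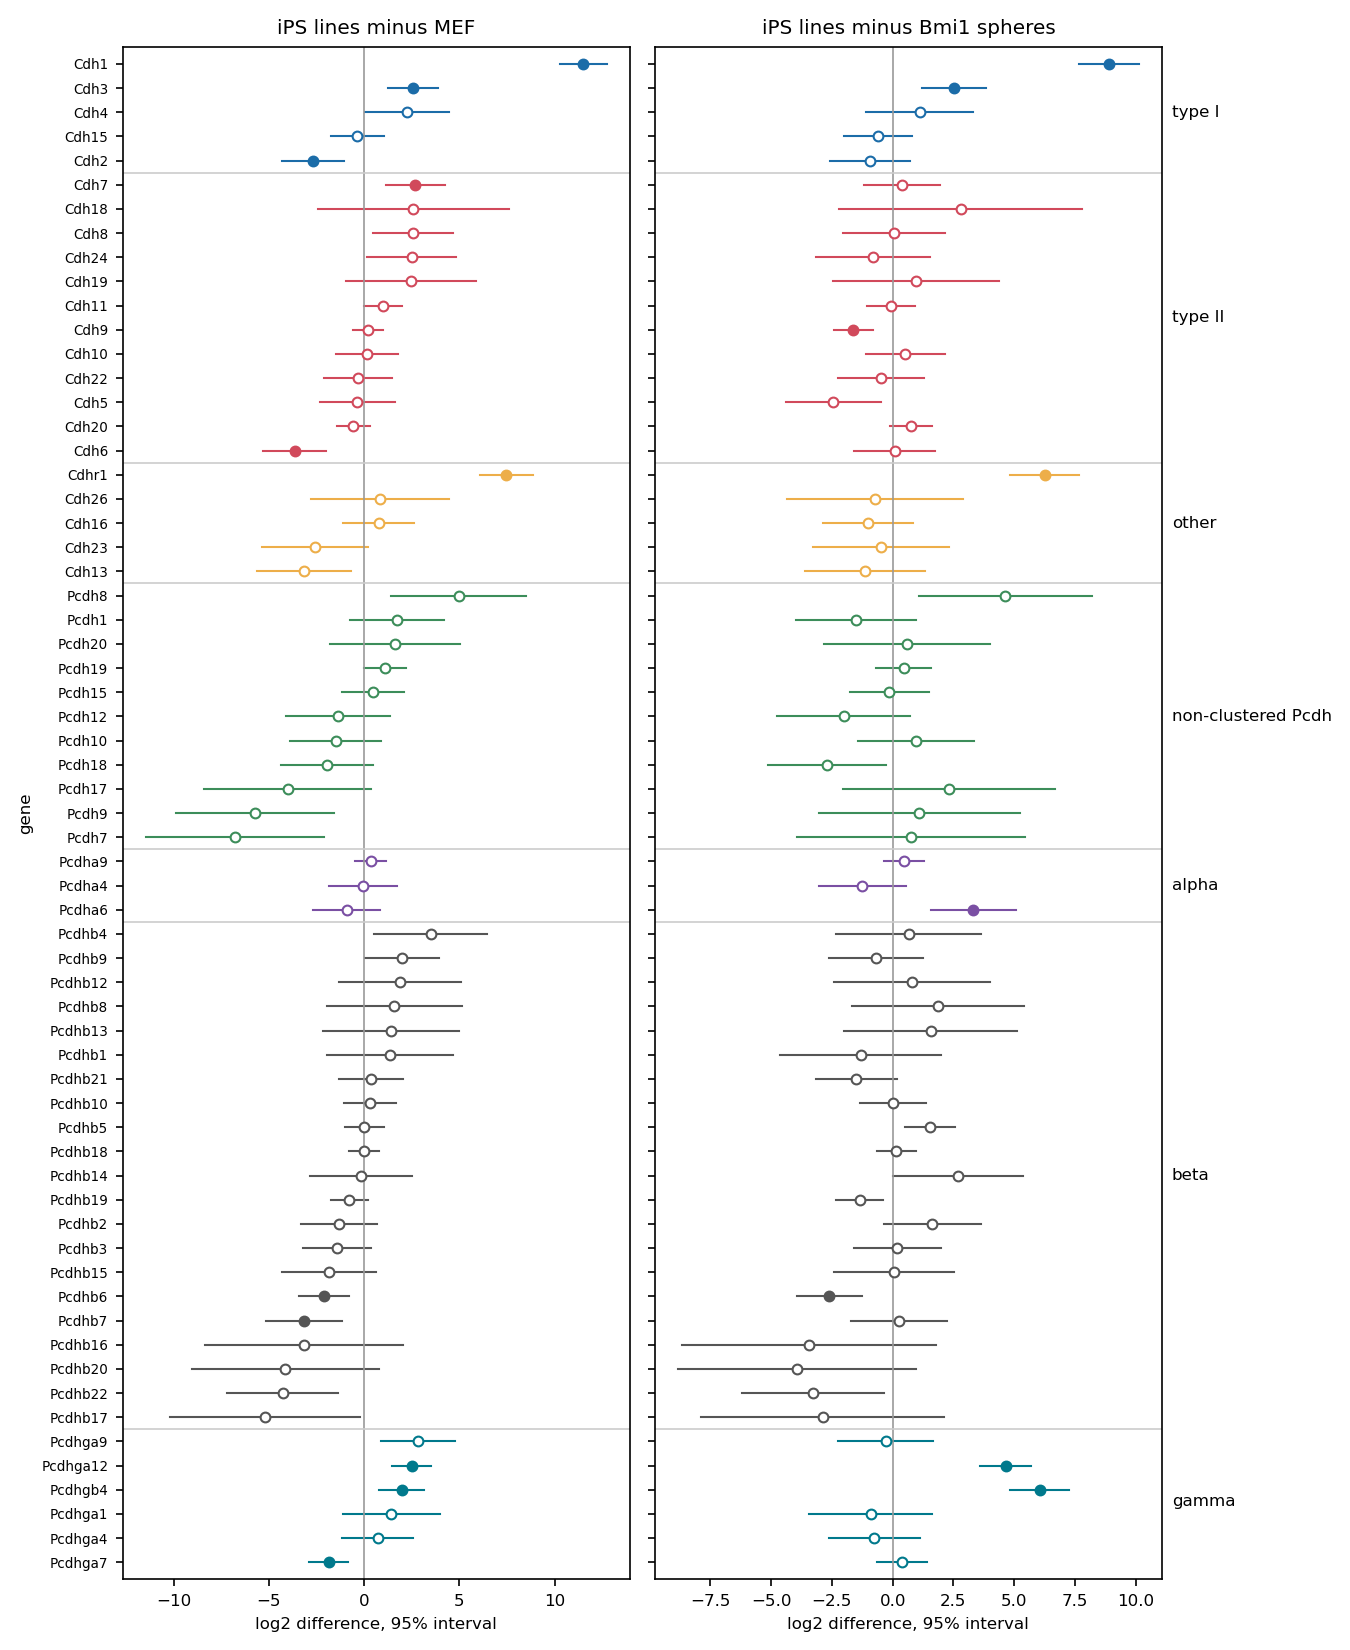
Log2 difference in relative level (horizontal axis) of each of the 63 tested members, with its 95% interval, for the iPS lines minus MEF (left) and minus Bmi1 spheres (right), grouped by subfamily. Filled points passed limma's adjusted threshold: 11 against MEF and 8 against spheres, with Cdh1 farthest to the right in both panels.

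Among the type I classical cadherins, Cdh1 and Cdh3 were higher and Cdh2 was lower in iPS lines than in MEF. The remaining 2 of the 5, Cdh4 and Cdh15, did not pass. Cdh1 had a relative level of 1.89, 2.77 and 3.34 (lowest, median and highest of the 9 lines), against 2.37 in ES cells, −6.22 in spheres and −8.83 in MEF. Every line lay far above the spheres and above MEF, where the probe was not above background, and the ES value lay inside the range of the lines. The difference from MEF was at least 699-fold (adjusted p = 1.23e-06), with measured means of 2.68 and −8.83. From the spheres it was 8.90 ± 0.55 (SE) on the log2 scale (adjusted p = 3.51e-06). A bound of "at least" sets the brighter mean against the lowest signal that counted as above background on the dim array. From ES cells the difference was 0.31, with a 95% interval of −0.92 to 1.54. On the shared slide the Bmi1-Oct4 lines lay 10.72 and 10.84 above MEF.

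Cdh3 encodes P-cadherin, which accompanies E-cadherin in many epithelia. Its relative level was −1.75, −1.02 and 0.00 in the iPS lines (lowest, median, highest), against −0.87 in ES cells, −3.40 in spheres and −3.47 in MEF. The lines overlapped ES cells and none reached down to spheres or MEF. The difference was 2.58 ± 0.59 from MEF (adjusted p = 0.0206) and 2.52 ± 0.59 from spheres (adjusted p = 0.0260). It was −0.02 from ES cells, with a 95% interval of −1.34 to 1.29.

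Cdh2 was the only type I member lower in the iPS lines than in MEF by the test. The lines stood at 0.11, 1.61 and 2.22 (lowest, median, highest), against −0.87 in ES cells, 2.40 in spheres and 4.16 in MEF. All lines lay between the ES and sphere values. The difference from MEF was −2.69 ± 0.74 (adjusted p = 0.0436). The call was lost when Bmi1-Oct4 line 2, either oxysterol-Oct4 line, either purmorphamine-Oct4 line or tail-tip line 1 was left out, and over the 9 such fits the adjusted p ran from 0.0285 to 0.0659. The difference was 2.34 from ES cells (adjusted p = 0.735) and −0.93 from spheres (adjusted p = 0.507). The remaining probes of Cdh2, both dimmer, went opposite ways against MEF. One was above background only in MEF (−3.08) and spheres (−5.67), and its iPS lines minus MEF difference was −4.49 ± 0.89 (adjusted p over all probes 0.0121). The other read −2.29 in spheres and was above background elsewhere only in the tail-tip lines (−5.26 and −4.87). On oxysterol-Oct4 line 2 that probe had no value, and the fit left it out.

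Cdh4, R-cadherin, ranged from −3.16 to 0.36 over the lines (median −0.66), against −0.71 in ES cells, −2.06 in spheres and −3.20 in MEF. Its difference from MEF was 2.25 (adjusted p = 0.172), and it passed when oxysterol-Oct4 line 1, the lowest line, was left out. A second Cdh4 probe gave −0.98 for the same comparison (adjusted p = 0.584), so the probes differ in direction. Cdh15, M-cadherin of muscle, stood at −1.59 in ES cells against −5.49 in spheres and −5.75 in MEF, with the iPS lines from −6.64 to −5.01. The ES array was above every other array. The iPS lines minus ES difference was −4.52 ± 0.63 (adjusted p = 0.0639). It passed when tail-tip line 2 (−5.01), the line nearest ES cells, was left out. That widens the difference by construction, so the pass adds no support. Of the 4 muscle markers, the median relative level was −1.21 to −0.09 in the lines and −1.35 in ES cells, and 3 of the 4 (Myod1, Myog and Actc1) were lower in ES cells than in every line. The remaining one, Des, stood at 1.71 in ES cells, above the lines (0.45 to 1.5), spheres (−0.06) and MEF (−3.13). Their part in the Cdh15 level was not tested.

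**Figure D2:**
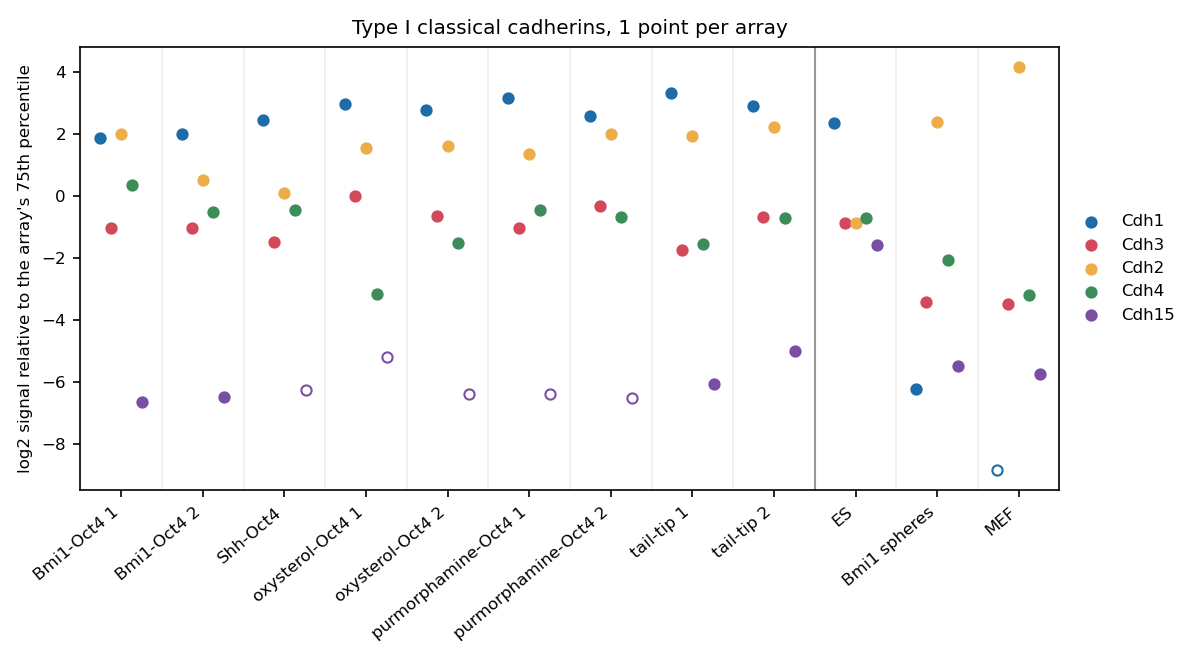
Relative level (log2, vertical axis) of the 5 type I classical cadherins on each of the 12 arrays (horizontal axis), 1 point per gene and array. Filled points were well above background and open ones were not. Cdh1 sits at 1.89 or higher in the 9 iPS lines and ES cells and at −6.22 and −8.83 in spheres and MEF, while Cdh2 is highest in MEF at 4.16.

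Of 12 type II classical cadherins tested, Cdh7 was higher and Cdh6 lower than in MEF, and 10 did not pass. Cdh6, K-cadherin of kidney and neural crest, stood at −6.45, −5.28 and −4.0 in the lines (lowest, median, highest), against −6.21 in ES cells, −5.34 in spheres and −1.59 in MEF. MEF lay above all other arrays, and 5 of the 9 lines were above background. The difference was −3.66 ± 0.75 (adjusted p = 0.0123). Cdh7 lay between −7.11 and −5.13 in the lines, with 4 of 9 above background, against −7.30 in ES cells, −6.57 in spheres and −8.86 in MEF. It was at least 1.51-fold above MEF, where it was not above background (measured means −6.17 and −8.86, adjusted p = 0.0358). The call for Cdh7 was lost without either Bmi1-Oct4 line or the Shh-Oct4 line, with adjusted p from 0.0294 to 0.0552 over the fits that left out 1 line.

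Cdh9 was lower in the iPS lines than in the spheres. It stood at −6.27, −5.81 and −5.62 in the lines, of which 3 were above background, against −6.46 in ES cells, −4.21 in spheres and −6.06 in MEF. The spheres lay above all other arrays, and the difference was −1.62 ± 0.36 (adjusted p = 0.0190). The call was lost in 8 of 14 other settings besides leaving out 1 line. The difference was −0.59 with normexp background (adjusted p = 0.339) and 0 with dim signals raised to the highest array floor. Cdh5, VE-cadherin of endothelium, stood at −5.10, −3.93 and −2.20 in the lines, against −1.23 in spheres and −3.31 in MEF. The iPS lines minus spheres difference was −2.43 (adjusted p = 0.128). The median of 6 endothelial markers was −4.83 to −2.14 in the lines, −7.05 in spheres and −5.16 in MEF, and 4 of the 6 were lower in spheres than in every line. Cldn5 stood at −0.02 in spheres, above every line (−2.20 to −0.56) and MEF (−2.13), and Emcn lay inside the range of the lines. Their part in the Cdh5 level was not tested.

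The remaining type II genes passed in no limma comparison of genes. Cdh10 lay between −1.24 and 0.93 in the lines, against −0.33 in ES cells, −0.35 in spheres and 0.04 in MEF, inside the range of the lines. Cdh20 lay between −3.30 and −2.34 in the lines, against −2.87 in ES cells, −3.60 in spheres and −2.27 in MEF. Cdh22 was above background in all but 2 of the lines (−5.02 to −2.56), in ES cells (−4.40), in spheres (−3.34) and in MEF (−3.51). Cdh8 and Cdh24 were above background in 5 lines each and not in MEF, with differences of 2.56 (adjusted p = 0.114) and 2.50 (adjusted p = 0.159). Cdh18 was above background on 2 arrays, Bmi1-Oct4 line 1 (−2.23) and Shh-Oct4 (−2.83). Cdh19 was above background on 3, oxysterol-Oct4 lines 1 and 2 (−4.31 and −5.24) and tail-tip line 1 (−4.94).

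Cdh11, a cadherin of mesenchyme and bone, gave patterns that depended on the probe. The 5′ probe printed above read 1.92, 2.45 and 3.1 in the lines (lowest, median, highest), against 2.11 in ES cells, 2.60 in spheres and 1.53 in MEF. All lines lay above MEF, with a difference of 0.99 ± 0.45 (adjusted p = 0.182). The remaining probes lie 34.4 and 34.0 kb further toward the 3′ end. The first of them was above background in 5 lines, with 2.37 in purmorphamine-Oct4 line 2, 2.29 in tail-tip line 2, 0.88 in Bmi1-Oct4 line 1, −1.01 in oxysterol-Oct4 line 1 and −3.58 in tail-tip line 1. It read 4.98 in MEF and was not above background in ES cells or spheres. The second 3′ probe was above background in MEF (2.67), in spheres (−6.70) and in 5 lines, the highest being tail-tip line 2 (−0.65) and purmorphamine-Oct4 line 2 (−1.35). The iPS lines minus MEF differences of the 3′ probes were −7.88 (adjusted p over all probes 0.226) and −7.65 (adjusted p over all probes 0.109). Both 3′ probes put MEF above every line, and the 5′ probe put it below every line.

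Of 5 other cadherins tested, Cdhr1 was higher in the iPS lines than in MEF and spheres, and 4 did not pass. Cdhr1 is a photoreceptor cadherin of the retina. It stood at −1.77, −0.57 and 0.12 in the lines (lowest, median, highest), against −1.17 in ES cells, −6.90 in spheres and −8.12 in MEF. The lines overlapped ES cells, and the probe was not above background in spheres or MEF. The difference was at least 69.8-fold from MEF (measured means −0.65 and −8.12, adjusted p = 5.98e-05) and at least 75.7-fold from spheres (measured mean −6.90, adjusted p = 0.000133). Cdh13, T-cadherin, which lacks a cytoplasmic tail, stood at −2.73, −1.56 and 0.71 in the lines, against −1.46 in ES cells, −0.28 in spheres and 1.74 in MEF. Its difference from MEF was −3.16 (adjusted p = 0.101), and it passed when Bmi1-Oct4 line 1, the highest line, was left out. Cdh16, the kidney cadherin, lay between −3.14 and −0.40 in the lines, against −2.89 in ES cells, −1.09 in spheres and −2.87 in MEF. Cdh26 was above background in 5 lines, the highest being Bmi1-Oct4 line 1 (−2.58) and purmorphamine-Oct4 line 1 (−3.18). Cdh23, a cadherin of the hair-cell tip link, had 2 probes with opposite differences from MEF: one gave −2.58 (adjusted p over all probes 0.230) and the other was at least 2.44-fold above MEF (adjusted p over all probes 0.0206).

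None of 11 non-clustered protocadherins passed in any limma comparison of genes, and their median difference from MEF was −1.37, against 0.38 over all genes. These proteins lack the classical catenin-binding tail. Pcdh7 stood at −7.91, −6.32 and −1.94 in the lines (lowest, median, highest), against −7.34 in ES cells, −5.91 in spheres and 1.63 in MEF. All lines lay below MEF, and those above background were tail-tip line 2 (−1.94), purmorphamine-Oct4 line 2 (−2.08), Bmi1-Oct4 line 1 (−3.79), oxysterol-Oct4 line 1 (−4.0) and Bmi1-Oct4 line 2 (−6.44). The difference was −6.78 (95% interval −11.46 to −2.10, adjusted p = 0.0678). Pcdh9 stood at −5.89, −3.77 and −0.45, against −3.36 in ES cells, −4.61 in spheres and 2.22 in MEF. Its difference was −5.73 (95% interval −9.88 to −1.57, adjusted p = 0.0788), and the highest lines were again purmorphamine-Oct4 line 2 (−0.45) and tail-tip line 2 (−1.0). Of 4 Pcdh9 probes above background somewhere, 1 passed when probes were tested singly (−3.34 ± 0.86, adjusted p over all probes 0.0367). Pcdh17 was above background in 3 lines, purmorphamine-Oct4 line 2 (−2.57), Bmi1-Oct4 line 1 (−2.85) and tail-tip line 2 (−2.87), and in MEF (−1.50).

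Tail-tip line 2 and purmorphamine-Oct4 line 2, the highest lines for Pcdh7 and Pcdh9, also had the highest fibroblast markers. The median relative level of the 10 fibroblast markers was −0.11 in tail-tip line 2, −0.53 in purmorphamine-Oct4 line 2 and −0.62 in oxysterol-Oct4 line 1, and between −4.93 and −2.77 in the remaining 6 lines, against 2.92 in MEF. Bmi1-Oct4 line 1, where Pcdh7 and Pcdh17 were also above background, was among those 6 (−3.18), and Pcdh17 was not above background in oxysterol-Oct4 line 1. When tail-tip line 2 and purmorphamine-Oct4 line 2 were left out, 9 members passed against MEF, 4 higher and 5 lower, and Pcdh7 and Pcdh9 were among the lower ones. Pcdh7 also passed when either of these lines was left out singly, and Pcdh9 when purmorphamine-Oct4 line 2 was. The pair was chosen after seeing the data. Leaving out the lines nearest MEF widens the difference by construction, so these passes add no support. The same holds for Cdh4, Cdh13 and Pcdh8, which passed when the line nearest MEF was left out. The markers' part in these levels was not tested. Of 27 member probes above background in MEF and not in ES cells, between 2 (Shh-Oct4) and 22 (Bmi1-Oct4 line 1) were above background in a line and 17 were in the spheres. The same share over all such probes of the array was 17.9% and 71.1% on those arrays and 78.2% in the spheres.

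Other non-clustered protocadherins went differently. Pcdh8, a protocadherin of somites and neurons whose promoter is printed above, stood at −7.04, −2.48 and −1.62 in the lines, against −4.38 in ES cells, −7.68 in spheres and −8.01 in MEF. It was above background in 8 lines and in ES cells and not in spheres or MEF. The difference was at least 13.3-fold from MEF (measured means −3.04 and −8.01, adjusted p = 0.0746) and 4.64 on the measured scale from spheres (adjusted p = 0.109). It passed in both comparisons when purmorphamine-Oct4 line 1, the line at −7.04, was left out. Pcdh18 stood at −5.74, −4.33 and −1.93 in the lines, against −1.46 in spheres and −2.18 in MEF, and was not above background in ES cells. Pcdh19, known for X-linked epilepsy in people, lay between −2.65 and −1.32 in the lines, against −2.33 in ES cells, −2.75 in spheres and −3.39 in MEF. Its second probe read −0.73 in MEF and −3.36 or less in every line, opposite in sign to the first. Pcdh1, an epithelial protocadherin, stood at −4.60, −3.39 and −1.16 in the lines, against −1.82 in spheres and −5.05 in MEF. Pcdh20 was above background in 6 lines, with −2.38 in purmorphamine-Oct4 line 2 the highest, and not in MEF.

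**Figure D3:**
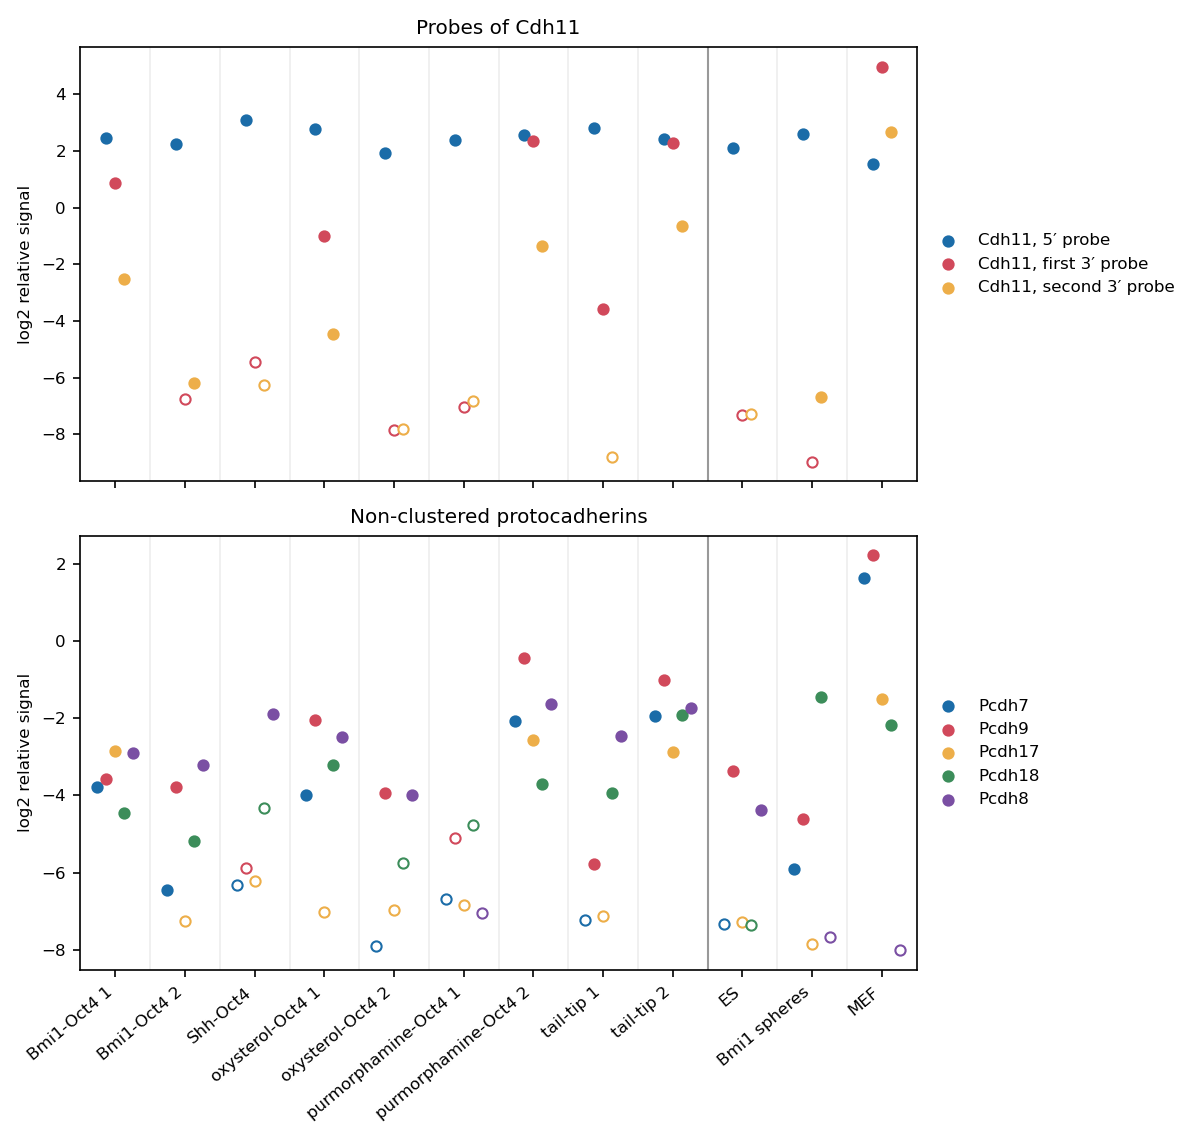
Relative level (log2, vertical axis) on each of the 12 arrays for the 3 probes of Cdh11 (top) and for 5 non-clustered protocadherins (bottom), 1 point per probe and array. Filled points were well above background and open ones were not. The 3′ probes of Cdh11 and Pcdh7 and Pcdh9 peak in MEF, with purmorphamine-Oct4 line 2 and tail-tip line 2 the highest or among the highest lines.

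Of the 31 clustered protocadherins, 30 were above background somewhere. Against MEF none of 3 alpha genes passed, 2 of 21 beta genes were lower, and of 6 gamma genes 2 were higher and 1 was lower. The probes run over 887 kb of mm7 chromosome 18, in the order alpha, beta, gamma. Alpha variable-exon probes span 45.0 kb and alpha 3′ probes lie 201 to 232 kb from the first of them. Beta probes lie at 312 to 566 kb, gamma variable-exon probes at 709 to 815 kb, and gamma 3′ probes at 885 to 887 kb. A 3′ probe can read transcripts of more than 1 variable exon, so the gene it is named for is uncertain, and the beta genes are similar enough in sequence that probes may read more than 1 of them.

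Among alpha probes, the variable-exon and 3′ probes of Pcdha6 went opposite ways in the spheres. The 3′ probe stood at −0.99, −0.09 and 1.26 in the iPS lines (lowest, median, highest), against −1.33 in ES cells, −3.24 in spheres and 1.00 in MEF. The spheres lay below every other array, and the iPS lines minus spheres difference was 3.32 ± 0.79 (adjusted p = 0.0278). The variable-exon probe stood at −2.78 to −1.76 in the lines, −2.65 in ES cells, 0.46 in spheres and −2.63 in MEF. There the spheres lay above every other array, by −2.65 ± 0.46 for iPS lines minus spheres (adjusted p over all probes 0.00608). The brightest Pcdha9 probe, also 3′ of the variable exons, was even, at 2.10 to 2.87 in the lines, 2.36 in ES cells, 1.95 in spheres and 2.09 in MEF. Its remaining probes were not even, and neither was above background in ES cells. The second 3′ probe read −8.92 to −1.59 in the lines, −2.37 in spheres and −1.13 in MEF. The variable-exon probe read −6.29 to −1.92 in the lines, −5.67 in spheres and −3.48 in MEF. Each was above background in 6 of the 9 lines. Pcdha4 was above background in both Bmi1-Oct4 lines (−5.95 and −5.99) and in spheres (−5.37). Purmorphamine-Oct4 line 2 gave the highest reading (−5.17) but was not above background. The lowest signal that counted as above background was −4.46 on that array. On the arrays of the Bmi1-Oct4 lines and spheres it was −7.25 to −6.88, so detection does not set these samples apart.

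The beta genes were measured unevenly. Of 29 beta probes, 3 were above background in all 9 lines and 7 in none. Pcdhb18 was the most even of those described here, at −0.01 to 0.63 in the lines, 0.01 in ES cells, 0.12 in spheres and 0.29 in MEF. Pcdhb5 lay between −0.99 and 0.29 in the lines, against 0.72 in ES cells, −1.83 in spheres and −0.31 in MEF. Pcdhb3 lay between −4.44 and −1.56 in the lines, against −4.24 in ES cells, −2.93 in spheres and −1.31 in MEF, which was above every line.

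Pcdhb6 and Pcdhb7 passed against MEF, and Pcdhb6 also against spheres. Pcdhb6 stood at −6.81, −5.70 and −5.14 in the lines, 2 of them above background, against −5.14 in ES cells, −3.21 in spheres and −3.69 in MEF. Every line lay below spheres and MEF, with differences of −2.61 ± 0.60 (adjusted p = 0.0230) and −2.12 ± 0.60 (adjusted p = 0.0483). Pcdhb7 stood at −8.52, −6.65 and −6.01, with only tail-tip line 1 above background, against −3.92 in MEF. It was not above background in ES cells or spheres, and the difference from MEF was −3.16 ± 0.89 (adjusted p = 0.0483). Both calls against MEF were lost in 7 of the 9 fits that left out 1 line, with adjusted p up to 0.0716 for Pcdhb6 and 0.0640 for Pcdhb7, and were kept only without Bmi1-Oct4 line 1 or tail-tip line 1.

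Larger beta differences came with wider spread and did not pass. For Pcdhb15, Pcdhb16, Pcdhb17, Pcdhb20 and Pcdhb22 the lowest line was not above background. In that order, 8, 6, 7, 5 and 7 of the 9 lines were. The low ends and the differences below therefore include values under detection, and their size is uncertain. Pcdhb17 stood at −8.98, −4.08 and −1.50 in the lines, against −2.79 in ES cells, −1.56 in spheres and 0.77 in MEF (difference from MEF −5.20, adjusted p = 0.167). Pcdhb22 stood at −7.21, −4.87 and −2.75, against −3.85 in ES cells, −1.44 in spheres and −0.47 in MEF (difference from MEF −4.27, adjusted p = 0.0660, passing without Bmi1-Oct4 line 1 or oxysterol-Oct4 line 1). Those were its highest and lowest lines. Leaving out either narrows the spread by construction, so these passes add no support. All lines lay below MEF for both genes. Pcdhb20 stood at −8.76, −4.08 and −1.82, against −0.61 in spheres and −0.41 in MEF, and was not above background in ES cells. Pcdhb16 stood at −8.89, −3.62 and −1.92, against −4.50 in ES cells, −0.94 in spheres and −1.23 in MEF. Pcdhb15 lay between −5.08 and −1.57 in the lines, against −4.17 in ES cells, −3.33 in spheres and −1.43 in MEF. The second Pcdhb16 probe read −4.84 to −3.80 in the lines, −3.57 in spheres and −4.30 in MEF, inside the range of the lines. The second Pcdhb17 probe was above background only in ES cells (−3.72) and tail-tip line 2 (−5.41). By the brightest probes, spheres and MEF were at or above the highest iPS line for Pcdhb16, Pcdhb17, Pcdhb20 and Pcdhb22. The exception was Pcdhb17 in spheres (−1.56 against −1.50), just under it. In the opposite direction, Pcdhb4 was above background in 6 lines (−6.22 to −3.21) and spheres (−5.70) and not in MEF (difference 3.49, adjusted p = 0.126).

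**Figure D4:**
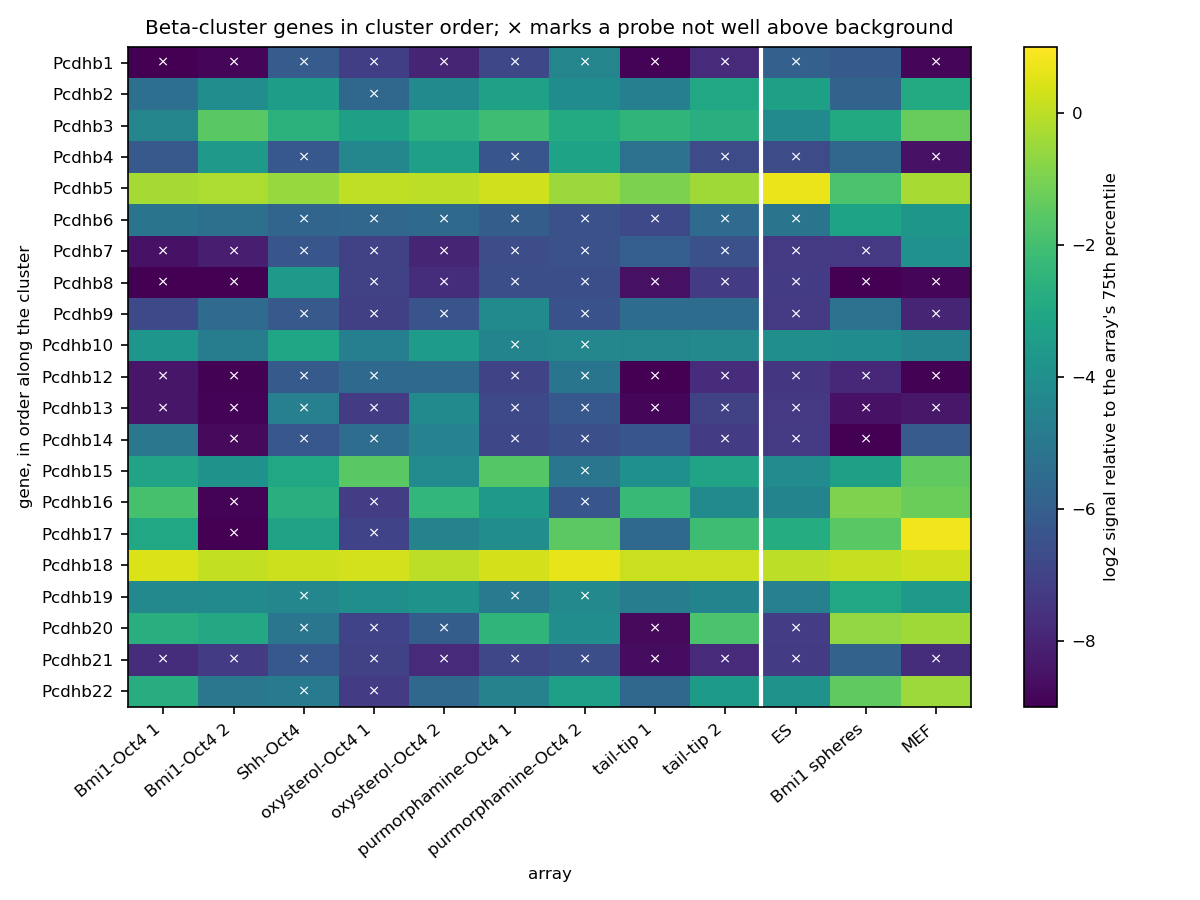
Relative level (log2, colour) of the 21 beta-cluster genes above background on at least 1 array, each by its brightest probe. Genes are in their order along the cluster (vertical axis), with the 12 arrays on the horizontal axis. A cross marks a probe not well above background. Pcdhb5 and Pcdhb18 carry no cross on any array, and Pcdhb16, Pcdhb17, Pcdhb20 and Pcdhb22 range over 4.45 to 7.47 between iPS lines, against 0.63 for Pcdhb18. The lowest lines of Pcdhb16, Pcdhb17, Pcdhb20 and Pcdhb22 carry crosses.

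Among gamma genes, Pcdhga12 and Pcdhgb4 were higher in the iPS lines than in both MEF and spheres. Pcdhgb4 stood at −2.39, −1.73 and −0.74 in the lines (lowest, median, highest), against −0.81 in ES cells, −7.72 in spheres and −3.63 in MEF. The lines overlapped ES cells, lay above MEF, and lay further above the spheres, where the probe was not above background. The difference was at least 37.3-fold from spheres (measured means −1.67 and −7.72, adjusted p = 5.33e-05) and 1.96 ± 0.54 from MEF (adjusted p = 0.0447). The call against MEF was lost when either Bmi1-Oct4 line, oxysterol-Oct4 line 2, purmorphamine-Oct4 line 1 or either tail-tip line was left out, with adjusted p from 0.0341 to 0.0677 over the 9 fits. Pcdhga12 stood at −4.91, −4.46 and −3.72, against −3.94 in ES cells, −9.04 in spheres and −6.88 in MEF. It was not above background in spheres or MEF, and the difference was at least 5.64-fold from spheres (measured means −4.39 and −9.04, adjusted p = 0.000117) and at least 5.20-fold from MEF (measured mean −6.88, adjusted p = 0.00761).

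Pcdhga7 was read by a probe at the 3′ end of the gamma cluster and was lower in the iPS lines than in MEF. It stood at 2.84, 3.45 and 3.97 in the lines, against 3.47 in ES cells, 3.03 in spheres and 5.28 in MEF, where the spot was saturated. The lines overlapped ES cells and spheres, and all lay below MEF, their mean at least 3.62-fold (adjusted p = 0.0284). A second 3′ probe read 2.26 to 3.44 in the lines and 5.12 in MEF, a difference of −2.26 ± 0.55 (adjusted p over all probes 0.0302). The only variable-exon probe of Pcdhga7 was above background in Bmi1-Oct4 line 1 (−3.16), ES cells (−3.67) and MEF (−4.28). Pcdhga9 was above background in 5 lines (highest −3.94) and in spheres (−5.26) and not in MEF (difference 2.85, adjusted p = 0.0650, passing without oxysterol-Oct4 line 1 or purmorphamine-Oct4 line 1). Those lines lay near the lowest and at the highest end of the range. Leaving out either narrows the spread, so these passes add no support. Pcdhga1 lay between −5.09 and −1.90 in the lines, against −4.89 in ES cells, −2.67 in spheres and −5.01 in MEF, and Pcdhga4 between −4.78 and −2.13, against −3.41 in ES cells, −2.71 in spheres and −4.19 in MEF.

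**Figure D5:**
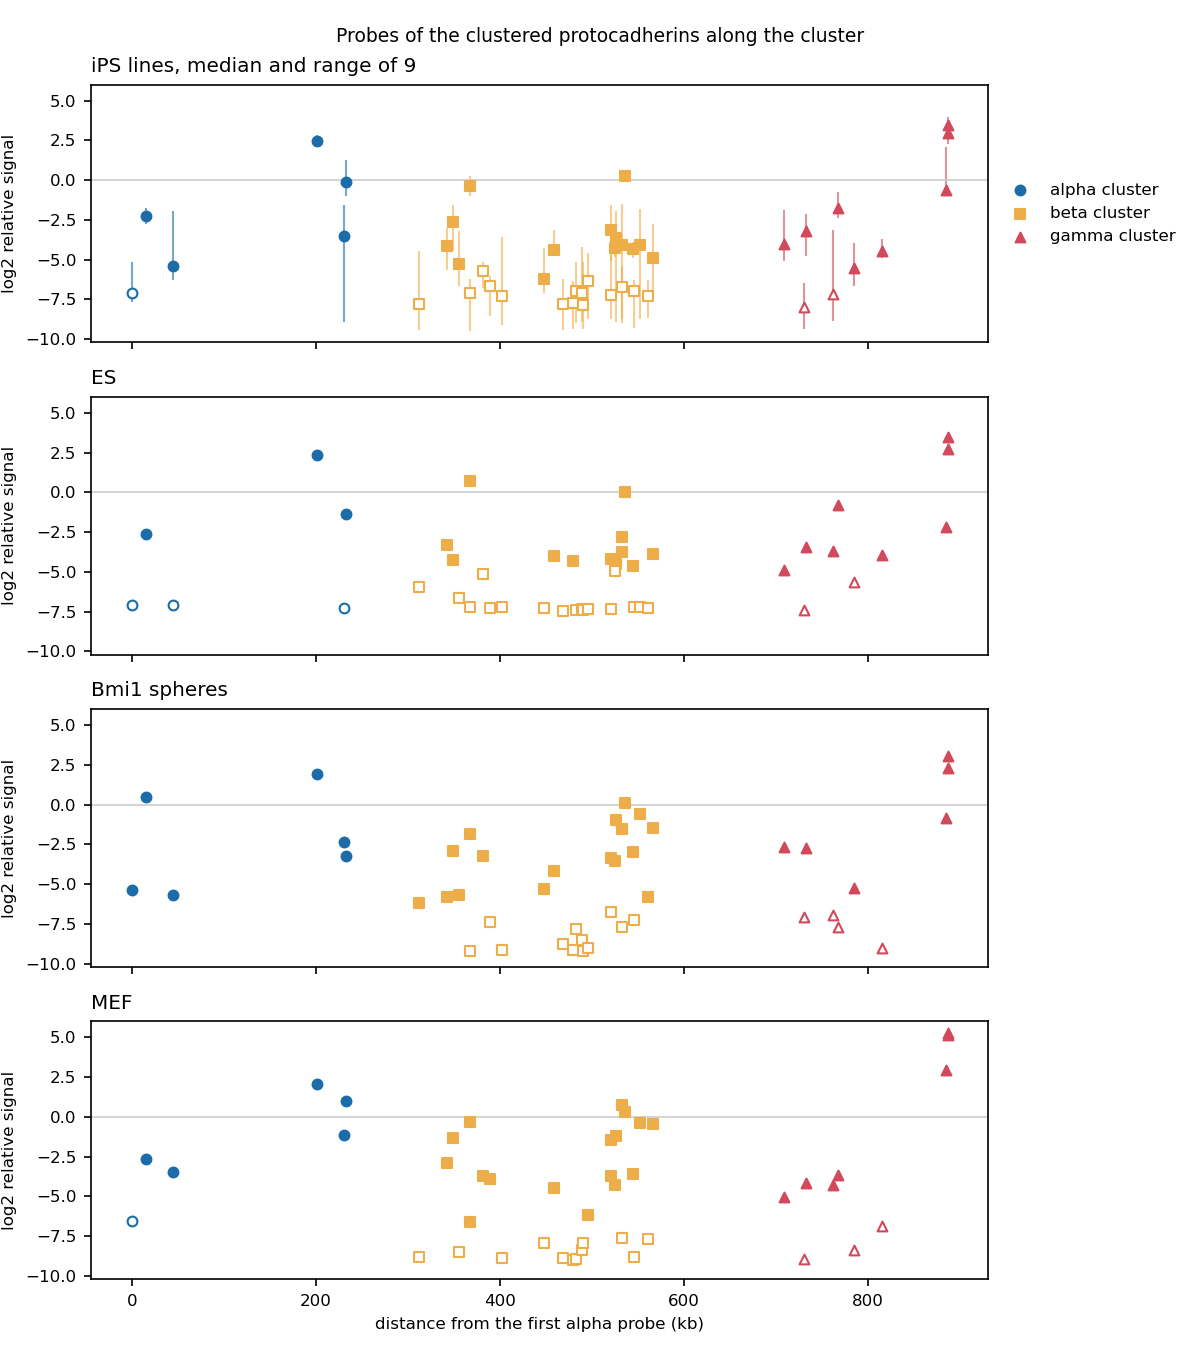
Relative level (log2, vertical axis) of each clustered protocadherin probe against its distance in kb from the first alpha probe (horizontal axis), for the 9 iPS lines (median and range), ES cells, Bmi1 spheres and MEF. Open symbols were not well above background (for the lines, in fewer than 5). The 3′ probes of alpha and gamma lie near 201 to 232 and 885 to 887 kb, and at the 3 such probes of Pcdhga7 MEF lies above the range of the lines. Heights of different probes are not comparable.

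The spheres and ES cells were each set against MEF as 1 array against 1, with no test. Members were counted where they lay at least 2-fold apart and above background in the higher sample. In spheres 20 of 63 members were higher and 19 lower than in MEF (61.9%, where 50.3% of all genes were apart, 32.4% higher and 17.9% lower). The median sphere minus MEF difference was 0.28 over members and 0.35 over all genes. The largest drops were Pcdh7 (−7.54), Pcdh9 (−6.83) and Pcdh17 (at least 41.8-fold), and the largest gains were Pcdh1 (3.22), Pcdhga1 (2.34) and Cdh24 (at least 5.0-fold), with a gene not above background in 1 sample ranked by its bound. Cdh2 was 1.76 lower in the spheres, and Cdh1, at −6.22, was at least 1.46-fold higher. In ES cells 12 members were higher and 22 lower than in MEF (54.0%, where 47.1% of all genes were apart, 25.5% higher and 21.5% lower). Ranked in the same way, the largest gains were Cdh1 (at least 564-fold), Cdhr1 (at least 48.6-fold), Cdh15 (4.16) and Cdh24 (at least 11.9-fold). The largest drops were Pcdh7 (at least 127-fold), Pcdh9 (−5.58), Cdh2 (−5.03), Pcdhb20 (at least 30.8-fold), Pcdh17 (at least 14.5-fold) and Cdh6 (at least 13.6-fold).

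The routes of induction were compared next. Between the 2 Bmi1-Oct4 lines and the 5 lines made with a hedgehog agonist and Oct4 from embryonic fibroblasts, no member passed and no gene of the array did (0%). The slide of the Bmi1-Oct4 lines held none of these agonist lines, so route and slide cannot be told apart. At an unadjusted p under 0.05, 7 members (11.1%) were counted, against 9.88% of genes. Of these, 6 were lower in the Bmi1-Oct4 lines (Cdh19, Pcdhb1, Pcdhb7, Pcdhb8, Pcdhb12 and Pcdhb13) and none of the 6 was above background on a Bmi1-Oct4 array. Pcdhb8 had the smallest adjusted p (0.121) and was above background on 1 array of the 12, Shh-Oct4 (−3.57). Cdh1 averaged 1.95 in the Bmi1-Oct4 lines and 2.74 in the agonist lines, a difference of −0.79 (95% interval −1.65 to 0.07, adjusted p = 0.557). Both Bmi1-Oct4 lines (1.89 and 2.01) lay below the lowest agonist line (2.46). Cdh2 differed by 0.14 (95% interval −1.08 to 1.35) and Cdh3 by −0.20 (95% interval −1.32 to 0.91).

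Between the 2 tail-tip lines and the 2 oxysterol-Oct4 lines from embryonic fibroblasts, again no member and no gene passed (0%). The tail-tip lines and these oxysterol-Oct4 lines were on different slides, so fibroblast source and slide are confounded. A slide term in this comparison rests only on the purmorphamine-Oct4 lines, which were split between those slides. At an unadjusted p under 0.05, 3 members were counted (4.76%, against 6.47% of genes), Cdh7, Pcdhb7 and Pcdhb12. Cdh7 read −5.13 and −5.34 in the tail-tip lines, against −6.92 and −7.11 in the oxysterol-Oct4 lines, where it was not above background (adjusted p = 0.509). The groups did not overlap, but the difference did not pass. Cdh1 differed by 0.25 (95% interval −0.76 to 1.26), Cdh2 by 0.50 (95% interval −0.92 to 1.93) and Cdh3 by −0.89 (95% interval −2.20 to 0.42).

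How far the lines varied among themselves depended on whether dim probes were counted. The median range over the 9 lines was 3.81 for non-clustered protocadherins, 3.46 for beta genes, 3.44 for other cadherins, 2.45 for type II, 2.25 for alpha, 2.15 for gamma and 1.75 for type I members, against 2.36 over all genes. Over the 20 members above background in all lines the median range was 1.82, against 1.65 for the 14700 such genes of the array, and the order of the subfamilies turned. It was then 2.74 for 3 other cadherins and 1.93 for 4 type I members, against 1.28 for 3 beta genes and 1.34 for the only non-clustered protocadherin left. The widest range among type I members was that of Cdh4, with oxysterol-Oct4 line 1 lowest (−3.16) and Bmi1-Oct4 line 1 highest (0.36).

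Genes that act with the cadherins were taken from lists. The counts below stand beside the shares of all genes that passed. These were 7.83% higher and 2.93% lower against MEF, and 5.79% higher and 2.89% lower against spheres. Of 18 catenins and junction partners, 1 was higher than in MEF and none lower. This was Epcam, an epithelial adhesion protein, at 0.50, 1.18 and 2.16 in the lines (lowest, median, highest), against 0.80 in ES cells, −3.69 in spheres and −4.32 in MEF, a difference from MEF of 5.55 ± 0.59 (adjusted p = 0.000245). Ctnnb1, beta-catenin, lay between 3.92 and 4.92 in the lines, against 4.24 in ES cells, 4.65 in spheres and 4.45 in MEF, and did not pass, nor did Ctnna1 or Pkp4. Of 20 measured genes of the wider cadherin superfamily, 4 were higher and none lower than in MEF: Cdhr1 itself, the desmosomal cadherin Dsg2 (3.42 ± 0.59), and the planar polarity cadherins Celsr1 (3.98 ± 0.56) and Celsr3 (4.22 ± 0.49). Against spheres Celsr1 and Cdhr1 were higher, and Fat4 (−7.20 ± 0.98) and Cdhr5 (−2.41 ± 0.56) lower.

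Of 8 genes of cadherin shedding and cleavage, 3 were lower in the iPS lines than in MEF and none higher. They were the proteases Adam9 (−2.78 ± 0.56, adjusted p = 0.0107) and Mmp14 (−3.14 ± 0.69, adjusted p = 0.0178) and the gamma-secretase subunit Aph1a (−1.66 ± 0.44, adjusted p = 0.0369). Mmp14 was also lower than in the spheres (−3.29 ± 0.69, adjusted p = 0.0152). Of 12 measured regulators of Cdh1, Ovol2, which represses Zeb genes, was higher (3.39 ± 0.79, adjusted p = 0.0224) and the Cdh1 repressor Snai2 lower (−4.54 ± 1.23, adjusted p = 0.0415) than in MEF. No other gene of this list passed against MEF. MEF lay inside the range of the lines for Klf4 (3.01 to 3.74, MEF 3.56) and Tcf3 (−0.43 to 1.65, MEF 0.21). It lay below every line for Snai3 (−4.33 to −1.28, MEF −6.04), Grhl2, Ovol1 and Esrp1. It lay above every line for Zeb1 (1.12 to 2.85, MEF 4.23), Twist1 and Snai1. The repressor Zeb2, which did not pass either, also lay below MEF in every line. It stood at −0.61, 0.14 and 2.89 in the lines, against −0.89 in ES cells, 4.77 in spheres and 4.82 in MEF, and the lines above 2 were tail-tip line 2 (2.89), Bmi1-Oct4 line 1 (2.67) and purmorphamine-Oct4 line 2 (2.39). Of 11 regulators of the clustered protocadherins, the DNA methyltransferase Dnmt3b was at least 83.0-fold higher than in MEF (measured means −0.39 and −6.91, adjusted p = 8.46e-05), where it was not above background, and 2.60 ± 0.59 higher than in spheres (adjusted p = 0.0213). No gene of these lists passed against ES cells.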

How the data were processed

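RNA extracted with Trizol was labelled with Cy3 and hybridised to one-colour Agilent arrays, 1 array per sample on 3 slides. Spots were quantified by the authors with Feature Extraction 9.5.3.1 against mm7, per the file headers. The deposited values are the scanner's processed signal, a background-corrected intensity in which dim spots carry a surrogate value. No array had been scaled to another.

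From these, control spots and outlier spots were dropped, spots of one probe averaged, each array's 75th percentile set to 0 on the log2 scale, and probes named through RefSeq by accession (22951), symbol (6659) or synonym (3109), or left with the deposited name (8455). A gene was represented by its brightest probe on average and kept if above background on at least 1 array. Tests used limma 3.58.1 (lmFit and eBayes) in R 4.3.3 over all genes kept, with Benjamini-Hochberg adjustment and a threshold of 0.05, and were tested on simulated data. A model of 4 classes (8 residual degrees of freedom) served for MEF, ES cells and spheres, and a model of 8 groups (4 residual degrees of freedom) for routes of induction. Of all probe values 642 were missing. Precision is limited by the number of arrays.

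Genes named were Cdh1, Cdh2 and Cdh3, every member that passed, and within each subfamily up to 6 with the highest mean level, up to 4 with the largest range over the lines and those whose probes disagreed. In the lists of partners these were genes that passed and up to 4 with the highest mean level. A few others were named after their values were seen. Members and lists were chosen with earlier results of these data known. Alternatives covered background, scaling, the filter, the choice of probe, slide, clone number, model and leaving out lines.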

Additional observations from a re-analysis of the deposited data

Results flagged for a closer look

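Pcdh8 had 1 line far from the others. It stood at −7.04 in purmorphamine-Oct4 line 1, where it was not above background, while the next lowest line stood at −3.98 and the highest at −1.62 (relative level, log2). The gap to the next line was 0.564 of the whole range, above Dixon's 95% critical value for 9 samples. The lowest signal that counted as above background on that array was −4.81. The size of the gap, and with it the flag, therefore rests on a value under detection. It was 1 of 58 members examined in this way, and chance alone marks about 1 in 20.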

How the results depend on the processing

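The iPS lines minus MEF count of 11 members became 7 with quantile normalization (4 higher, 3 lower), 4 with the slide as a fixed block (3 higher, 1 lower), 6 with the replicate block by clone number (4 higher, 2 lower), 7 in the 8-group model (5 higher, 2 lower) and 0 within the slide of MEF, and ran from 6 (without Bmi1-Oct4 line 2) to 11 when 1 line was left out, with 7 without oxysterol-Oct4 line 2. Clone numbers do not pair the samples: the correlation of same-numbered lines' deviations was −0.16 to 0.24 over 6 pairs of groups. With normexp background the count stayed 11 but split 4 higher and 7 lower, and with dim signals raised to the highest array floor, an alternative chosen after seeing the data, it was 13 (4 higher, 9 lower). The median difference of all genes was 0.38, and 0.27 with normexp, 0.13 with quantile normalization and 0.05 with the raised floor. Cdh1 and Cdhr1 kept their calls against MEF in all 24 settings but the fit within 1 slide. Cdh3, Cdh6 and Pcdhga12 lost theirs in 3 settings, Pcdhga7 in 4, Cdh7 in 11, Cdh2 and Pcdhgb4 in 14, Pcdhb7 in 15 and Pcdhb6 in 19. The iPS lines minus ES count of 0 became 1 (Cdh15) with normexp background, with the raised floor and without tail-tip line 2, and ran from 0 to 1 when 1 line was left out. The iPS lines minus spheres count of 8 became 5 with the slide as a fixed block, 5 in the 8-group model and 3 within the slide of the spheres, and was 8 to 9 when 1 line was left out. Its calls were lost, in settings other than leaving out 1 line, in 0 for Cdh1 and Pcdhgb4, 1 for Cdhr1 and Pcdhga12, 3 for Pcdha6, 4 for Cdh3, 5 for Pcdhb6 and 8 for Cdh9, and in none of the fits without 1 line. Among them, Pcdha6 was 0.34 with the mean of all probes and Pcdhga12 0.07 with the raised floor. The count of 0 for Bmi1-Oct4 against agonist lines became 2 without a filter on dim probes (Pcdhb8, Pcdhb12) and 1 with the raised floor (Pcdhb8), and the fit with slide as a fixed block could not be made there. The spheres minus MEF count of 39 became 24 with normexp background (6 higher, 18 lower). Directions turned for differences that had not passed: for Cdh3, iPS lines minus ES, which was 0.026 with normexp, 0.0098 with the 75th percentile over probes above background on all arrays, 0.073 without the tail-tip lines, and −0.13 to 0.087 when 1 line was left out; for Cdh1, iPS lines minus ES, which was −0.42 with the slide as a fixed block and within the slide; for Cdh1, tail-tip minus oxysterol-Oct4, −0.33 with the slide as a fixed block; and for Cdh2, which was −1.01 for Bmi1-Oct4 minus agonist lines with the mean of all probes (−0.61 to 0.88 when 1 line was left out) and −0.18 for tail-tip minus oxysterol-Oct4 lines with the mean of all probes. The cause of these changes was not tested. Dim probes limit what can be read: the lowest signal counted as above background ran from −7.25 to −4.18 (log2) between arrays.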

Other observations

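Of 22 members read by several probes above background somewhere, 13 had probes whose iPS lines minus MEF differences differ in sign: Cdh2, Cdh4, Cdh10, Cdh11, Cdh23, Pcdh10, Pcdh17, Pcdh19, Pcdha6, Pcdha9, Pcdhb5, Pcdhb16 and Pcdhb17. The widest gap was that of Cdh11, from −7.88 to 0.99.

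Clustered genes were expressed on all arrays. Counting a gene as measured where a probe of its variable region was above background, of 31 there were 24 and 21 in the Bmi1-Oct4 lines, 13 in Shh-Oct4, 14 and 20 in the oxysterol-Oct4 lines, 16 and 12 in the purmorphamine-Oct4 lines, and 20 and 19 in the tail-tip lines, against 17 in ES cells, 22 in spheres and 20 in MEF. The share of all gene spots above background varied as well. It was 78.4% and 76.7% in the Bmi1-Oct4 lines, 58.4% in Shh-Oct4, and 64.2% and 70.3% in the oxysterol-Oct4 lines. The purmorphamine-Oct4 lines had 63.7% and 61.5%, and the tail-tip lines 77.0% and 72.6%. In ES cells it was 64.9%, in spheres 80.0% and in MEF 72.8%. Pcdh15, a protocadherin of hair-cell tip links, had a probe at −1.59 in Bmi1-Oct4 line 2 that was above background on 1 other array, the spheres (−6.02).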
